A study of Homo sapiens with 24 samples.

Results

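HT-144 is an established line of human melanoma cells that came from a metastasis. It was transfected with either of a pair of antisense oligonucleotides (ASOs) against SREBF1, called S1 and S4, and the RNA of the S1 cells is compared here with that of the S4 cells. By their titles, 8 of the 24 deposited files belong to these ASOs. They are 4 sequencing lanes of each, which were summed, so the comparison sets 1 library against 1 library, of 6 libraries in all. The other libraries were a mock transfection, a negative control siRNA pool (siNegative), an siRNA pool against SREBF1 (siSREBF1) and a negative control ASO (ASO-Neg). ASOs were used at 5 nM and siRNA pools at 50 nM, with Lipofectamine RNAiMAX, for 3 days in medium with insulin, transferrin and selenium. Every group was the same cell line, so the mock and negative control cells shared the line and the medium with the S1 and S4 cells. The nucleotide sequences and the chemistry of S1 and S4 were not given in the sources used here.

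SREBF1 encodes SREBP-1, a membrane-bound transcription factor that is cut by proteases when sterols are low and then switches on genes of fatty acid synthesis, while its relative SREBP-2, from SREBF2, acts mainly on cholesterol genes. An ASO is a short single strand that pairs with a complementary RNA, and many ASOs bring in RNase H1, a nuclear and cytoplasmic enzyme that cuts the paired RNA. Because that enzyme also meets unspliced transcripts in the nucleus, introns as well as exons can be cut, and a pair of ASOs of different sequence against 1 gene is commonly used to tell effects of losing the target from effects of either oligonucleotide.

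The S1 library held 47900277 gene counts and the S4 library 15901894, and the other 4 held 12916478 to 20014261. Levels are in CPM, read counts relative to library size, scaled between libraries by the TMM method. Before that scaling 3 counts were worth 0.0626 CPM in S1 and 0.189 CPM in S4. Lanes of 1 library differed by about sampling noise (chi-square per degree of freedom 1.018 to 1.047), whereas lane 1 of S1 and lane 1 of S4 gave 8.69. Each of the 6 libraries had its own treatment, so each came from cells treated separately, and each group has 1 library. The spread behind each p-value is that between the mock, siNegative and ASO-Neg libraries. It mixes differences of reagent and culture and may be partly technical. The melanoma genes PMEL (3039 CPM in S1, 2195 in S4), DCT (970 and 556), SOX10 (535 and 439) and MITF (498 and 391) were high in both, and MLANA stood at 19.2 and 11.8 CPM. The 12 immune markers together reached 1.35 CPM in S1 and 3.46 in S4, with the leukocyte gene PTPRC at 0.25 and 0.61, and the 12 fibroblast markers together reached 732 and 1030.1 CPM, of which COL1A2 made 567 and 862 and COL1A1 0.63 and 1.46.

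SREBF1 RNA lay far below the controls in both libraries, at levels near each other. The gene (ENSG00000072310, GRCh38 chr17:17810399-17837002, minus strand) stood at 229 CPM in mock, 248 in siNegative, 220 in ASO-Neg and 54.8 in siSREBF1, and at 78.2 in S1 and 69.4 in S4. Its lanes spanned 77.0 to 79.3 CPM in S1 and 65.6 to 72.8 in S4. The log2 ratio of S1 over S4 was 0.17 with a 95% counting interval of 0.08 to 0.27, and the pooled-spread test described below did not separate the libraries (edgeR adjusted p = 0.549). SREBF2 stood at 517 CPM in S1 and 502 in S4, a log2 ratio of 0.04 (0.01 to 0.08, edgeR adjusted p = 0.99).

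Genes of fatty acid synthesis, the main targets of SREBP-1, went either way between S1 and S4, and 4 passed the test. Of 26 measured genes of fatty acid synthesis and desaturation, 14 were higher and 12 lower in S1, with a median log2 ratio of 0.04, equal to that of all 16297 genes tested, and the 4 are 15.4% of the list, against 6.1% of all genes. SCD, the main stearoyl-CoA desaturase, was at 2377 CPM in S1 and 2286 in S4, against 4181 in ASO-Neg. FASN, the fatty acid synthase, was at 1253 and 1018, against 1686 in ASO-Neg, and ACLY, which makes cytosolic acetyl-CoA, was at 978 and 947, against 1252. In the pooled-spread test FABP5, a fatty acid binding protein, was higher in S1 (17.8 against 10.6 CPM, log2 ratio 0.75). Of the same list, 3 genes were lower in S1: ACSS2, which makes acetyl-CoA from acetate (-0.39), the malic enzyme ME1 (-0.37) and FADS3 (-0.54). DESeq2 called 1 gene of this list, and FABP5, ME1 and FADS3 did not pass there. FABP5 also did not pass in edgeR without lane 2 or without lane 3. Of 22 cholesterol synthesis genes, 11 lay on either side of 0 with a median of 0.01, and EBP, the sterol isomerase, was the 1 that passed (73.2 CPM in S1, 46.5 in S4, log2 ratio 0.65). None of the 17 measured genes of SREBP control and sterol uptake passed edgeR's test (median -0.01) or DESeq2's, and 3 had an unadjusted edgeR p under 0.05. At least 6.1% of all genes met that unadjusted cut, since that share passed after adjustment, and the full share was not counted. INSIG1, which holds SREBPs in the endoplasmic reticulum and is itself a target, stood at 387 CPM in S1 and 393 in S4.

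Away from the target the libraries differed at many genes. A size rule counted a gene when its log2 ratio was at least 1 in size, a fold of 2, and its level at least 10 CPM in either library. By that rule 34 of 9876 genes were higher in S1 (0.344%) and 69 were lower (0.699%). The same rule on pairs of control libraries counted 1 gene for siNegative over mock (0.0102%), 8 for ASO-Neg over mock (0.0819%) and 9 for ASO-Neg over siNegative (0.0919%). The pooled-spread test was edgeR's quasi-likelihood test in a fit of all 6 libraries in which mock, siNegative and ASO-Neg formed 1 class, so the spread comes from the controls, and S1 and S4 are assumed to vary as they do. It called 402 of 16297 genes higher in S1 (2.47%) and 599 lower (3.68%) at an adjusted p of 0.05, 6.14% in all, with 2 residual degrees of freedom. All 34 and all 69 genes of the size rule were among them. Without mock the test called 718 and 1036 genes, without ASO-Neg 895 and 1185, and DESeq2 called 170 and 231.

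**Figure D1:**
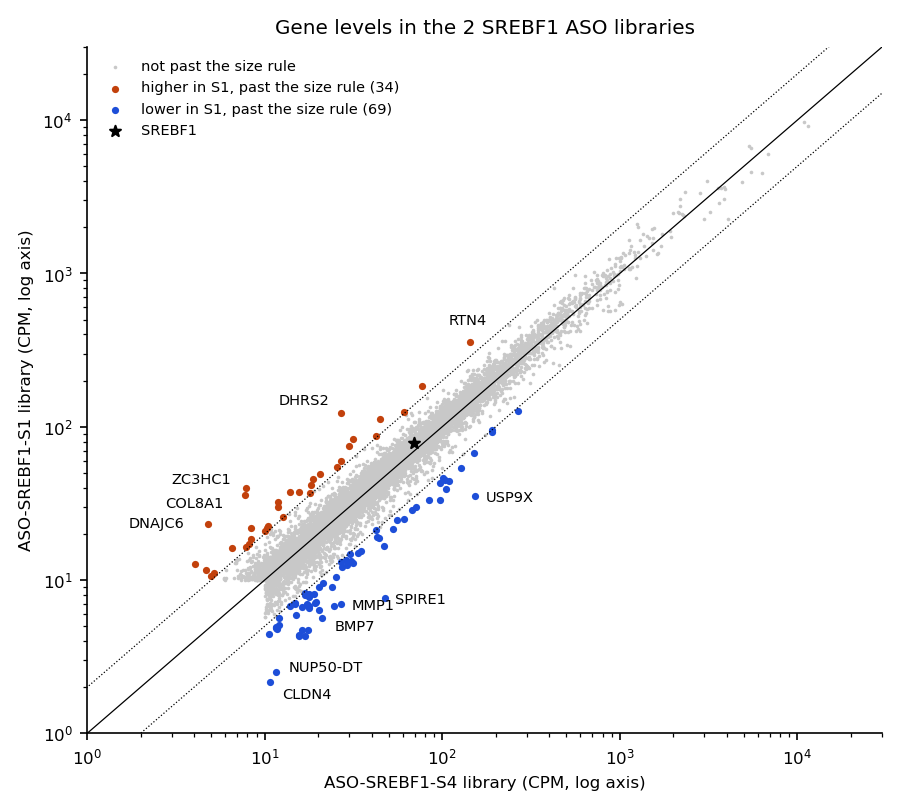
Each point is 1 of 9876 genes with at least 10 CPM in S1 or S4, with its level in S4 on the horizontal and in S1 on the vertical log axis. The solid line marks equal levels and the dotted lines a fold of 2; 34 genes lie above and 69 below by the size rule, while SREBF1 (star) lies near the solid line at 78.2 and 69.4 CPM.

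Among the genes lowest in S1, SPIRE1 and USP9X had S1 far below the rest, while S4 was only just under the 4 other libraries. SPIRE1 (ENSG00000134278, chr18:12446512-12658107) encodes an actin nucleator of vesicle transport. It stood at 63.8 CPM in mock, 53.2 in siNegative, 58.2 in siSREBF1 and 58.9 in ASO-Neg, against 7.64 in S1 and 47.4 in S4. The S1 lanes spanned 6.47 to 8.26 CPM and the S4 lanes 42.5 to 51.7, so S1 was at 12.98% of ASO-Neg and S4 at 80.4%. The log2 ratio was -2.62 (95% counting interval -2.82 to -2.45, edgeR adjusted p = 3.18e-07). USP9X (ENSG00000124486, chrX:41085445-41236579) encodes a deubiquitinase that removes ubiquitin from many proteins. It stood at 155 CPM in mock, 163 in siNegative, 158 in siSREBF1, 180 in ASO-Neg, 35.5 in S1 and 154 in S4, a log2 ratio of -2.11 (-2.20 to -2.02, edgeR adjusted p = 3.18e-07). NUP50-DT, a long noncoding RNA transcribed away from NUP50, was at 2.52 CPM in S1 and at 10.4 to 14.3 in the other 5 libraries. NUP50 itself, a nuclear pore gene, was at 167 CPM in S1 and 136 in S4 and did not pass (edgeR adjusted p = 0.163).

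The genes lowest in S4 had the opposite layout, with S1 near or above the remaining libraries. ZC3HC1 (ENSG00000091732, chr7:130018287-130051451) encodes NIPA, a nuclear pore basket and ubiquitin ligase protein. It stood at 29.5 CPM in mock, 31.9 in siNegative, 33.5 in siSREBF1, 34.1 in ASO-Neg and 40.0 in S1, and at 7.88 in S4, where lanes spanned 6.31 to 10.05. The log2 ratio was 2.33 (2.09 to 2.61, edgeR adjusted p = 2.0e-06). COL8A1 (ENSG00000144810, chr3:99638475-99799226) encodes a chain of type VIII collagen. It stood at 28.4 CPM in mock, 30.8 in siNegative, 29.4 in siSREBF1, 37.5 in ASO-Neg, 35.7 in S1 and 7.70 in S4, a log2 ratio of 2.20 (1.95 to 2.49, edgeR adjusted p = 1.83e-05). DNAJC6, which encodes auxilin, a factor for uncoating clathrin vesicles, was at 4.79 CPM in S4 and at 20.2 to 23.7 in the other 5. RTN4, which encodes the Nogo proteins of the endoplasmic reticulum, was at 143 CPM in S4 and at 312 to 359 in the other 5 (log2 ratio 1.32).

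CLDN4 had another layout, with S4 high and S1 at the control level. This gene (ENSG00000189143, chr7:73799542-73832690) encodes claudin-4 of epithelial tight junctions. It stood at 2.01 CPM in mock, 2.17 in siNegative, 2.80 in ASO-Neg and 2.17 in S1, and at 6.70 in siSREBF1 and 10.7 in S4 (log2 ratio -2.25, -2.66 to -1.94, edgeR adjusted p = 9.48e-05). The siSREBF1 library lay between the controls and S4. CLDN1, another claudin, went the other way, with 21.9 CPM in S1, 8.43 in S4 and 3.73 to 9.52 elsewhere (log2 ratio 1.37). Of 15 measured claudin and junction genes, CLDN1 passed as higher in S1, CLDN4 and JAM3 passed as lower, and the median log2 ratio was -0.01. MMP1, the interstitial collagenase, was also high in S4 (26.9 CPM) against S1 (7.03) and the controls (5.96 to 10.1), and it was highest in siSREBF1 (48.7). BCAN-AS1, an antisense transcript at the brevican gene, was at 16.9 CPM in S4 and at 3.43 to 5.80 in the other 5.

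**Figure D2:**
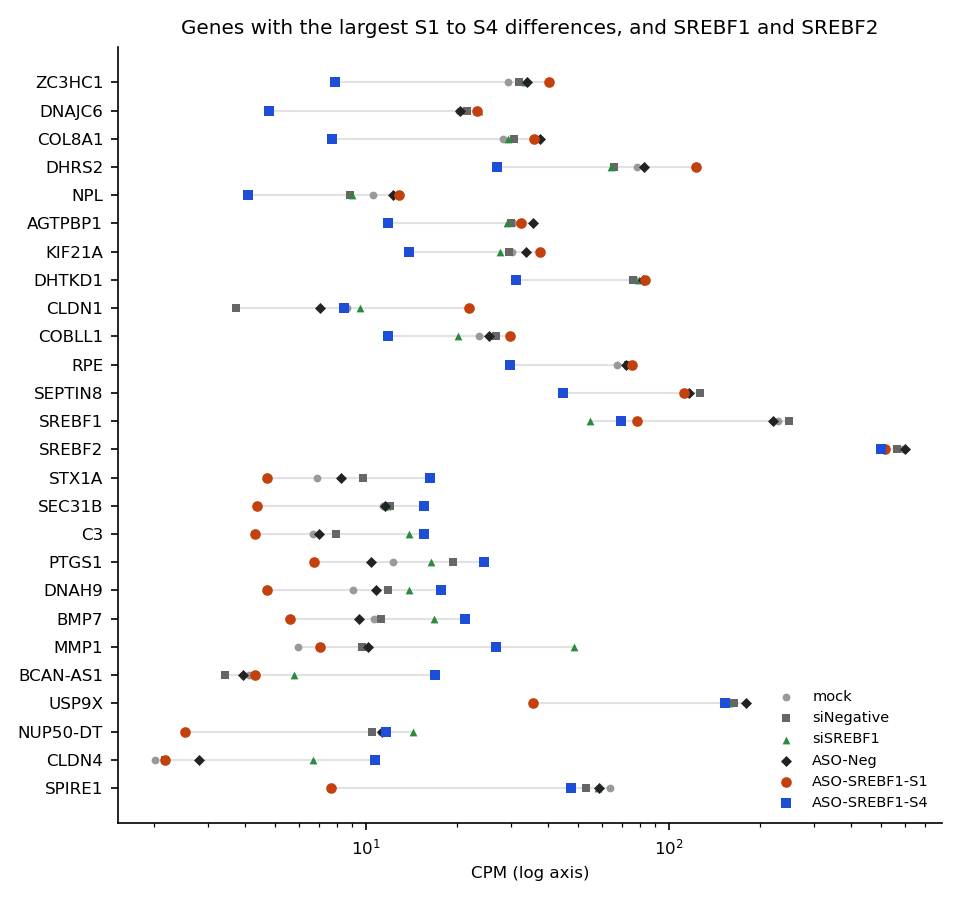
Levels of the 12 genes highest and the 12 lowest in S1 over S4 by the size rule, with SREBF1 and SREBF2 between them, in CPM on a log axis, 1 point per library with no error bar since each group is 1 library. S4 (blue squares) stands alone at the low end for genes such as ZC3HC1 (7.88 CPM) and S1 (orange circles) for genes such as SPIRE1 (7.64 CPM), while both sit near siSREBF1 for SREBF1.

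Each gene of the size rule was placed against the range of the 4 other libraries. Of the 34 genes higher in S1, S4 lay below all 4 in 29, and in 10 of these S1 was within the range, among them CDC42BPA, LGI3, SGTB, ABCB5, RTN4, RPE, AGTPBP1, COL8A1 and DNAJC6. In 17 of the 29, S1 also lay above all 4, as in KIF21A, which encodes a kinesin (37.6 CPM in S1, 13.9 in S4 and 27.8 to 33.8 elsewhere). Of the 69 genes lower in S1, S1 lay below all 4 in 48, and in 28 of these S4 also lay above all 4. BMP7, a growth factor of the TGF-beta family, is an example with 5.62 CPM in S1, 21.2 in S4 and 9.47 to 16.8 elsewhere. In 18 of the 69, S4 was above the range and S1 within it. These were, besides CLDN4 and BCAN-AS1, genes such as ENC1, an actin-binding protein (33.3 CPM in S1, 97.8 in S4), and SULF2, a heparan sulfatase (25.2 and 61.0), which are named after their values were seen.

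Genes low in one ASO library shared short sequences with SREBF1. All 25843 different runs of 12 bases on the sense strand of the SREBF1 gene, introns included, were looked for in the gene bodies of 9853 other genes, sense strand, GRCh38 and GENCODE release 44. Runs held by at least 10% of the low genes were ranked by how much more often low genes held them than all others. The search was made after the values were seen, and it gives a description with no test. In the 48 genes of the size rule with S1 below the other 4 libraries, the first-ranked run lay in coding sequence of SREBF1 at chr17:17818353-17818364. It was held by 9 of the 48 (18.8%) and by 79 of 9805 other genes (0.806%). In the 29 genes with S4 below, the first-ranked run lay in untranslated sequence of SREBF1 at chr17:17812443-17812454, and was held by 10 of the 29 (34.5%) and by 26 of 9824 others (0.265%). The lines below show these runs in SREBF1, written 5′ to 3′ on the strand of the transcript with 4 bases on either side, and, as the clearest cases among low genes, the match in each named gene. Capitals mark the run in SREBF1, and in the other genes the whole unbroken match with SREBF1, which reaches 16 bases in USP9X.
SREBF1 with the S1 run: aaatCTGCTGTCTTGCgcaa
USP9X, intron, chrX:41200467-41200482: tcacAAATCTGCTGTCTTGCttgc
SPIRE1, intron, chr18:12456603-12456616: taccATCTGCTGTCTTGCtagc
OSBPL10, intron, chr3:31787689-31787702: tttgATCTGCTGTCTTGCtgat
BMP7, intron, chr20:57262658-57262670: gagcTCTGCTGTCTTGCaggc
ITGA4, coding exon, chr2:181495400-181495412: tgatTCTGCTGTCTTGCtaag
SREBF1 with the S4 run: gcgcGATCTTGACCCTaaga
KIF21A, intron, chr12:39319515-39319527: aactGATCTTGACCCTAcctc
COL8A1, intron, chr3:99693483-99693494: tgatGATCTTGACCCTgtgt
RTN4, intron, chr2:55048559-55048570: tcttGATCTTGACCCTgtgt
SEPTIN8, coding exon, chr5:132758997-132759008: atcaGATCTTGACCCTtagc

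OSBPL10 encodes an oxysterol-binding protein relative and was at 44.7 CPM in S1, 103 in S4 and 90.6 to 101 elsewhere. ITGA4, the alpha-4 integrin subunit, was at 53.6 CPM in S1, 128 in S4 and 105 to 135 elsewhere. SEPTIN8, a cytoskeletal GTPase, was at 112 CPM in S1, 44.5 in S4 and 113 to 126 elsewhere. Whether these runs are the sites to which S1 and S4 were designed was not tested, as the oligonucleotide sequences were not at hand. The choice of run depended on length. The S1 run, longer by 1 base, also came first at 13 bases and other runs came first at 11 and 14, while the S4 run shortened by 1 base came first at 11 and other runs at 13 and 14. The window around the S4 run was identical over 20 bases in COL8A1, CDC42BPA, SCYL3 and the long noncoding RNA gene TMEM161B-DT. RTN4, CLASP2, KNL1 and FOXN2 shared with these the 4 bases after the run, which differ from those in SREBF1. Of the genes in both groups, all but TMEM161B-DT passed the pooled-spread test as lower in S4. Holders are therefore not independent of each other, and counts of them are not counts of separate matches. Many low genes held no copy, since 9 of the 48 held the S1 run and 10 of the 29 the S4 run. Of the 12 lowest ratios of S1 over S4, 3 held the S1 run (SPIRE1, USP9X and BMP7). Of the 12 highest, 4 held the S4 run (COL8A1, KIF21A, COBLL1 and SEPTIN8). Not all of these were low genes: CLDN4, BCAN-AS1 and MMP1 had S1 within the range of the 4 other libraries, and CLDN1 had S4 within it. ZC3HC1, DNAJC6, DHRS2 and CLDN4 held neither run.

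Holders of each run were then listed, with and without the low genes on which it was chosen. The remaining holders entered the ranking only through the share among other genes. The S1 run was held by 88 genes with at least 10 CPM in S1 or S4, with a median log2 ratio of -0.25, against 0.07 for all genes at that level. Of these 88, 31 passed the pooled-spread test as lower in S1 (35.2%, against 4.35% of all genes at that level) and 3 as higher. Without the 9 on which the run was chosen, 22 of 79 passed as lower (27.8%), with a median of -0.21. The S4 run was held by 36 genes with a median log2 ratio of 0.61, and 20 of them passed as lower in S4 (55.6%, against 3.79% of all). Without the 10 on which it was chosen, 10 of 26 passed as lower in S4 (38.5%), with a median of 0.29. The numbers passing were 21 to 41 for the S1 run and 18 to 21 for the S4 run over the alternative fits, the lowest of both with DESeq2.

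The holders were mostly long genes with the match in an intron. Their median gene length was 149 kb for the S1 run and 148 kb for the S4 run, against 35.6 kb for all genes at that level. The longest match was in an intron in 84 of 88 holders of the S1 run and in 30 of 36 holders of the S4 run. Among genes at least as long as the median holder that did not hold the run, 4.84% of 1157 passed as lower in S1 (for the S1 run) and 5.54% of 1191 as lower in S4 (for the S4 run). The same count was made for the opposite strand. Of 67 genes with only the reverse complement of the S1 run, 2 passed as lower in S1 (2.99%, median log2 ratio 0.00) and 2 as higher. Of 37 with only that of the S4 run, 1 passed as lower in S4 (2.70%, median -0.01) and 5 as higher in S4, and among all genes at that level 4.35% were called in that direction.

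For the S1 run, longer matches went with lower levels in S1 relative to S4. Holders of the S1 run whose match with SREBF1 ended at 12 bases had a median log2 ratio of -0.15 (62 genes, 25.8% past the test as lower in S1). Those with 13 bases had -0.39 (20 genes, 50.0%) and those with 14 or more had -1.10 (6 genes, 83.3%). Without the genes on which the run was chosen the medians were -0.14 (58 genes), -0.35 (18 genes) and -0.71 (3 genes), so the longest class rests on few genes. The 6 were SPIRE1, USP9X, OSBPL10, ANKRD17, MARK3 and CDH13. Of these CDH13, a cadherin, did not pass in spite of 15 shared bases (log2 ratio -0.14, edgeR adjusted p = 0.684). Both ASO libraries were low for it, with 15.6 CPM in S1 and 17.3 in S4 against 39.0 in ASO-Neg. ANKRD17 (-0.99) and MARK3, a microtubule affinity kinase (-0.71), were not among the low genes on which the run was chosen. For the S4 run, 31 genes with 12 bases had a median of 0.44, 4 with 13 bases had 1.04, and ALPK1, an innate immune kinase, with 15 bases had 0.90. Without the genes on which that run was chosen, the medians were 0.29 at 12 bases (23 genes) and 0.21 at 13 (2 genes). SLC25A26, a mitochondrial carrier with 13 bases, passed in the other direction (-0.53). Further holders of the S4 run that passed included LARP1, an RNA-binding protein of translation (0.95), FGF2, a fibroblast growth factor (0.95), the transcription factor FOXN2 (0.97) and MED13, a Mediator subunit with the match in coding sequence (0.94). Those named for their match alone were chosen after their values were seen.

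**Figure D3:**
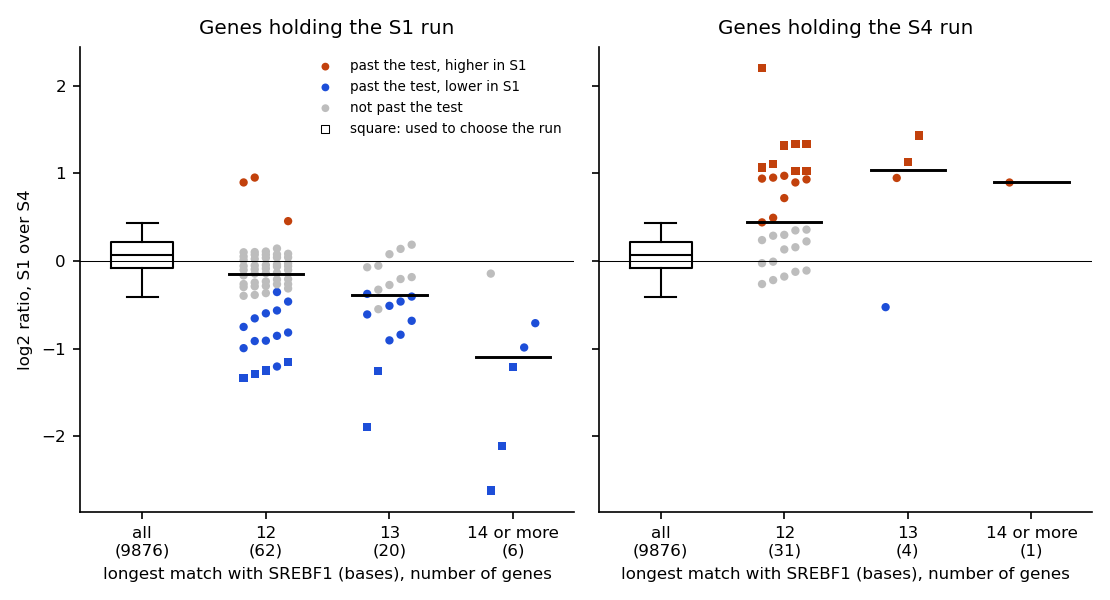
Log2 ratio of S1 over S4 for genes holding the 12-base S1 run (left) or S4 run (right), by the length of the unbroken match with SREBF1; black bars are medians, squares are genes used to choose the run, and the box shows the median, quartiles and 5th to 95th percentiles of all 9876 genes with 10 CPM. Medians run from -0.15 to -1.10 with match length on the left, and most points on the right lie above 0, with a median of 0.44 at 12 bases. Without the squares the left medians run from -0.14 to -0.71, the last from 3 genes. On the right they are then 0.29 at 12 bases and 0.21 at 13, the latter from 2 genes.

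Lengths over all genes of the size rule are given for comparison. The median annotated length was 56.8 kb for the 34 genes higher in S1, 37.6 kb for the 69 lower in S1 and 35.5 kb for all 9876. Of the 29 genes with S4 below the other libraries 41.4% were over 100 kb, of the 48 with S1 below 27.1%, and of all 20.7%.

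Across 30 gene lists, ATF4 targets had the highest median. ATF4 is the transcription factor of the integrated stress response and drives amino acid synthesis and import. Of 27 measured members 26 were higher in S1. Among all 16297 genes tested, 9081 were higher in S1 (55.7%) and 7216 lower, which is set beside such counts in the lists. Among the 9876 genes with at least 10 CPM in S1 or S4, 63.9% were higher in S1, with a median log2 ratio of 0.07. That share is the closer background for lists with few genes under 10 CPM. The median log2 ratio was 0.45 (0.04 over all genes tested), and 11 passed as higher and none as lower (2.47% and 3.68% of all genes tested). CHAC1, a glutathione-degrading enzyme, was at 7.79 CPM in S1, 3.40 in S4 and 1.63 to 2.604 elsewhere (log2 ratio 1.18, edgeR adjusted p = 0.0183). ATF5 was at 27.7 CPM in S1, 14.9 in S4 and 15.8 to 17.5 elsewhere (0.89), and SLC7A5, the large neutral amino acid transporter, was at 962, 636 and 738 to 981 (0.60). S1 lay above the 4 other libraries for 20 of the 27 (74.1%, against 26.4% of all genes tested) and S4 below them for 9 (33.3%, near the 26.8% of all). The count of 11 depended on the fit: DESeq2 gave 1, S1 thinned to the depth of S4 gave 3, and the fits without ASO-Neg and without mock gave 17 and 16.

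Genes induced by interferon, the cytokine of antiviral defence, were also mostly higher in S1. Of 38 measured members 34 were higher, against 55.7% of all genes tested. The median log2 ratio was 0.27, and 5 passed as higher and none as lower (2.47% and 3.68% of all genes tested). MX1, a GTPase that blocks viruses, was at 25.7 CPM in S1, 12.7 in S4 and 14.9 to 18.8 elsewhere (1.02). IFI6 was at 39.3 CPM in S1, 20.1 in S4 and 13.8 to 18.9 elsewhere (0.96), and OAS1, a sensor of double-stranded RNA, was at 21.1, 12.01 and 11.7 to 14.7 (0.81). OAS2 (6.57 and 2.85 CPM) and IFI27 (2.59 and 0.61 CPM) also passed, from low levels. S1 lay above all 4 other libraries for 31 of the 38 members (81.6%, against 26.4% of all genes tested), and S4 for 12 (31.6%, against 23.3%). DESeq2 called 2 members, and the fits without mock and without ASO-Neg called 13 and 14 as higher.

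Genes of G1/S and DNA replication mostly had higher levels in S1 than in S4, and few passed. Of 33 members 32 were higher in S1, against 55.7% of all genes tested, with a median of 0.30. S4 lay below the 4 other libraries for 28 (84.8%, against 26.8% of all genes tested). The 4 that passed (2.47% of all genes passed as higher) were CDT1, which licenses replication origins (45.6 CPM in S1, 18.6 in S4, 24.6 to 34.2 elsewhere, log2 ratio 1.29), MCM10 (0.66), the ribonucleotide reductase subunit RRM2 (0.61) and CDC6 (0.48). Without mock and without ASO-Neg the count was 9 and 11. Of 33 mitosis and G2/M genes 32 were also higher in S1 (median 0.23) and S4 lay below the others for 25 (75.8%). None of them passed in edgeR or DESeq2, while 8 had an unadjusted edgeR p under 0.05, a cut met by at least 6.14% of all genes. Targets of p53, which halts the cell cycle after damage, had the opposite sign more often. Of 28 measured, 16 were lower in S1 and 4 passed as lower, with none higher in edgeR's test or at an unadjusted p under 0.05: SESN1 (-0.62), RRM2B (-0.49), BTG2 (-0.48) and SPATA18 (-0.81). For this list S4 was above the 4 other libraries in 21 members (75.0%, against 23.3% of all genes tested) and S1 in 17 (60.7%, against 26.4%). By the pooled-spread test 3.68% of all genes were lower in S1.

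Melanocytic genes encode the pigment enzymes and their regulators, and some of them passed as higher in S1. Of 26 measured, 21 were higher in S1, against 55.7% of all genes tested, with a median of 0.40. The test passed 6 as higher and 1 as lower (2.47% and 3.68% of all genes tested). S4 lay below the 4 other libraries for 20 (76.9%, against 26.8% of all). TYRP1, a melanin enzyme, was at 183 CPM in S1, 77.1 in S4 and 89.1 to 153 elsewhere (log2 ratio 1.25, edgeR adjusted p = 0.00242). TYR, the tyrosinase, was at 234, 150 and 176 to 251 (0.65), and DCT at 970, 556 and 664 to 1022 (0.80). PAX3, SLC24A5 and RAB32 also passed as higher, and the receptor ERBB3 as lower (432 CPM in S1, 582 in S4, -0.43). DESeq2 kept 1 of the 6, which was not TYRP1, and the fits without mock and without ASO-Neg gave 10 and 12. Of 24 genes of the dedifferentiated melanoma state, FGF2 passed as higher in S1 and AXL (-0.65) and PDGFRB (-0.93) as lower, with a median of -0.01.

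Matrix genes were mixed, with more of them lower in S1. Of 38 measured collagen and matrix genes 25 were lower, against 7216 of all 16297 genes tested. The median was -0.25, 3 passed as higher and 9 as lower (2.47% and 3.68% of all genes tested). The 3 were COL8A1, COL4A2 (549 CPM in S1, 399 in S4, 0.46) and the metalloproteinase inhibitor TIMP3 (0.66). Among the 9, COL1A2, a chain of type I collagen, was at 567 CPM in S1, 862 in S4 and 567 to 794 elsewhere (-0.61), and TIMP1 was at 143, 232 and 144 to 178 (-0.70). COL5A1 (-0.91), COL9A3 (-0.70), COL8A2 (-0.93), COL13A1 (-0.73), COL16A1 (-0.53), COL4A5 (-0.51) and MMP1 were the others. DESeq2 called 2 as lower, and the fits without mock and without ASO-Neg called 15 each. Of the fibroblast list, which shares COL1A2, 10 members were measured, with LUM passing as higher in S1 (0.52) and COL1A2, PDGFRB and S100A4 (-0.74) as lower. The list summed to 759 to 976 CPM outside S1 and S4, and its part in these differences was not tested.

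Mitochondrially encoded genes were lower in S1 at every member. All 13 had a log2 ratio below 0 with a median of -0.30, and 5 passed as lower (3.68% of all genes tested): MT-ND3 (-0.66), MT-CYB (-0.49), MT-ND2 (-0.36), MT-ND4 (-0.33) and MT-ND5 (-0.33), which encode subunits of respiratory complexes. Their summed level was 46987 CPM in S1 and 57201 in S4. The other libraries reached from 46467 in siSREBF1 to 54862 in ASO-Neg, so S1 was near the siSREBF1 library and S4 above all. Without siNegative 2 passed, without mock 8 and without ASO-Neg 10.

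In the lists that hold SPIRE1, USP9X and ZC3HC1, 6.1%, 7.1% and 3.6% of measured members passed, against 6.1% of all genes tested. In those that hold COL8A1 and CLDN4, given above, the shares were 31.6% and 20%. Of 33 actin nucleation and vesicle transport genes, SPIRE1 passed as lower in S1 and the myosin MYO5A as higher (0.47), the median was 0.16, and S4 lay below the 4 other libraries for 17 (51.5%, against 26.8% of all genes tested). Of 42 ubiquitin-specific proteases, USP9X and USP2 passed as lower and USP40 as higher (median 0.06). USP40 was at 37.7 CPM in S1 and 15.7 in S4, but also at 16.7 in ASO-Neg, against 29.5 to 34.7 in mock, siNegative and siSREBF1. Of 28 nuclear pore and SCF genes ZC3HC1 alone passed, although 25 were higher in S1 (median 0.18), against 55.7% of all genes tested. Among genes with at least 10 CPM in S1 or S4, 63.9% were higher in S1 (median 0.07). For 18 of the nuclear pore and SCF genes (64.3%) S4 lay below the 4 other libraries. In the list of RNase H and antisense handling, DROSHA, the nuclear nuclease of microRNA processing (174 CPM in S1, 101 in S4, 144 to 155 elsewhere, log2 ratio 0.79), the nucleolar protein NPM1 (0.56) and RNASEH2B (0.49) passed as higher. The 3 are 10.7% of the 28 measured genes of this list. Its median was 0.18, and S4 lay below the 4 other libraries for 19 (67.9%).

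Among the remaining lists, medians ranged from -1.27 for the immune markers to 0.12 for AP-1 and YAP targets, and the genes that passed are given by name. The Wnt inhibitor DKK1 was above every other library in both ASO libraries, at 16.1 CPM in S1, 6.55 in S4 and 0.96 to 2.90 elsewhere (log2 ratio 1.29), and SFRP1 (-0.70) and FZD8 (-0.54) passed as lower in S1. CA9, the hypoxia-induced carbonic anhydrase, was at 15.4 CPM in S1, 35.0 in S4 and 26.2 to 50.7 elsewhere (-1.18), with ALDOC (-0.50) and P4HA1 (-0.40) also lower among 31 hypoxia genes. Of 27 NF-kB genes, CXCL1 passed as higher in S1 (0.75) and CXCL8 (-0.66) and TRAF1 (-1.07) as lower, with CXCL8 highest in siSREBF1 at 48.2 CPM. The chaperones PDIA4 (-0.49), PDIA6 (-0.41) and HSP90B1 (-0.41) passed as lower in S1 among 23 genes of the unfolded protein response, of which 18 were below 0. The lysosomal genes PSAP (0.74) and CTSZ (-0.71) passed in opposite directions among 30. None of 28 apoptosis regulators or 11 histone genes passed in edgeR or DESeq2, with 6 and 1 at an unadjusted edgeR p under 0.05. Of 26 AP-1 and YAP targets, 2 passed as higher in S1, FOSL2 (0.78) and ATF3 (0.57), and 2 as lower, the receptor AXL among them, and of 27 NRF2 targets ME1 alone passed. None of 6 keratinocyte or 4 immune markers passed in edgeR, with 4 and 2 at an unadjusted p under 0.05. At least 6.14% of all genes tested met that unadjusted cut, and the full share was not counted, so these counts describe the lists only. Of 5 endothelial markers KDR, a VEGF receptor, passed as higher in S1 (0.72). The keratinocyte list summed to 52.8 CPM in S1 and 62.9 in S4.

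**Figure D4:**
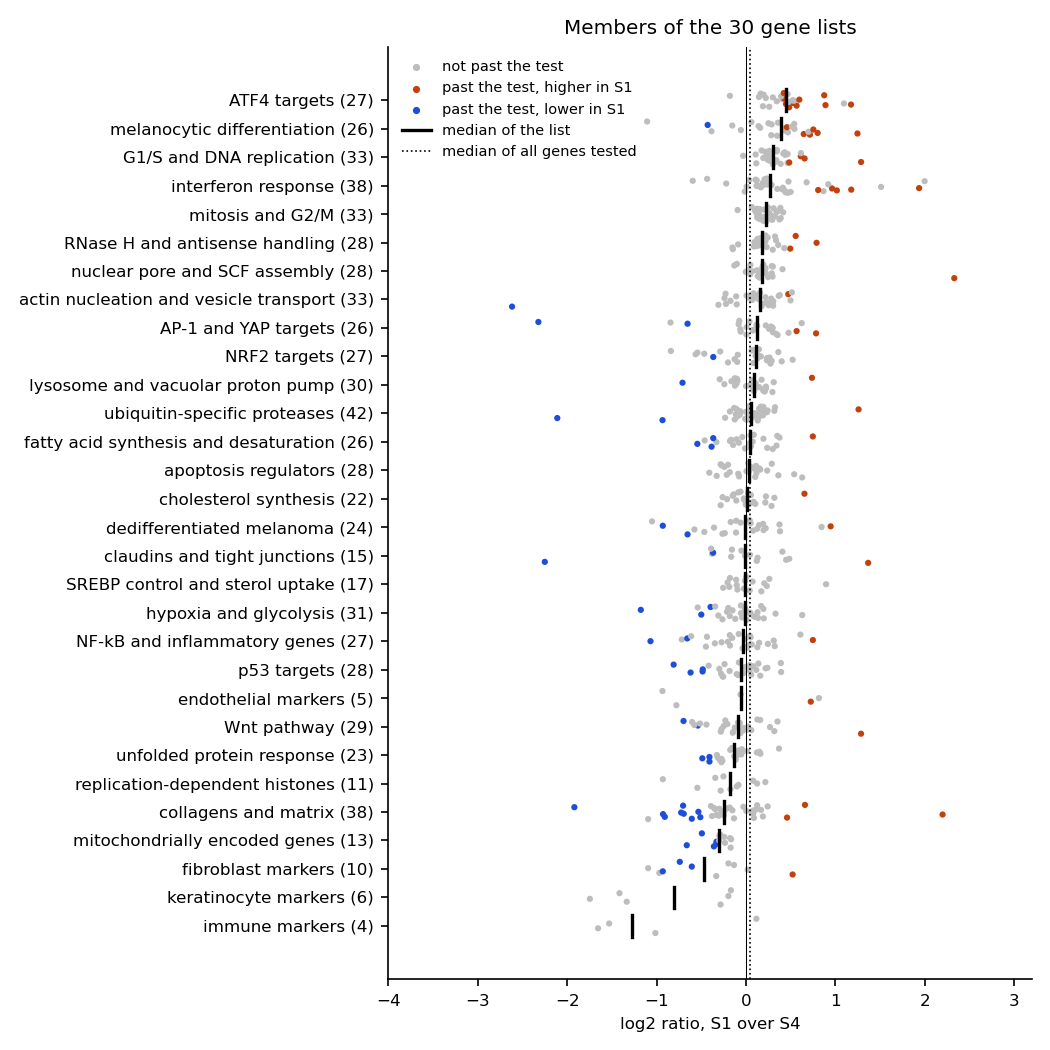
Log2 ratio of S1 over S4 for each measured member of the 30 lists (number measured in brackets), sorted by list median (black bar); orange and blue points passed the pooled-spread test as higher or lower in S1, and the dotted line is the median of all genes tested, 0.04. ATF4 targets lead with a median of 0.45, and SPIRE1, USP9X, CLDN4, COL8A1 and ZC3HC1 lie beyond 2 in size in lists whose medians stay between -0.25 and 0.18.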

How the data were processed

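Polyadenylated RNA of HT-144 cells was sequenced as strand-specific read pairs, per the labels' protocols. The deposited values are whole-number read counts per gene. The authors used STAR 2.6.1a, FastQC and GRCh38, per the submitters' processing notes, and the annotation used for counting is not given in the sources used here. Each file holds 1 lane. Lanes were summed to 6 libraries using the reverse-strand count column, since the forward column held 6.47% to 7.79% of the counts of both strands. The 4 summary lines of each file name no gene and were left out, and 80.65% to 81.82% of read pairs were assigned to a gene. Of 58735 gene identifiers 58207 matched GENCODE release 44 (99.93% of counts), which gave symbols and coordinates. One symbol of the lists, H3C2, had no match.

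Ratios used TMM scaling over the 6 libraries in edgeR 4.0.16 (R 4.3.3) with a prior count of 2, and exact binomial 95% intervals, which cover counting error only. The pooled-spread test was edgeR's quasi-likelihood F test, 2-sided, after filterByExpr, with 4 classes (controls, siSREBF1, S1 and S4), 2 residual and 11.82 prior degrees of freedom, and Benjamini-Hochberg adjustment over 16297 genes at 0.05. The controls received different reagents, so their spread includes that of reagents. On simulated data with 200 changed genes the test recovered 49% at a fold of 1.5 (11 unchanged genes called, 15843 genes tested) and 63% at a fold of 2 (12 called, 15821 tested). Apart from the changed genes, all simulated libraries shared the same mean per gene, and S1 and S4 varied as the controls did. The simulation therefore cannot show the error rate where that assumption fails.

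The comparison, its marker genes and the 30 lists were chosen with earlier results of these data known, and the lists have no test of their own. Named genes were the 5 markers, SREBF1 and SREBF2, the 12 highest and 12 lowest ratios of the size rule, the 10 smallest p-values per direction, and up to 4 members per list of largest ratio with at least 10 CPM. Further genes are named as members counted past the test or as holders of a shared run. Alternatives were DESeq2 1.42.0, limma-voom (limma 3.58.1), DESeq2 size factors, total counts, a prior count of 0.5, unstranded counts, S1 thinned to the total of S4, other filters, and leaving out a lane or a library. Results for some genes are not reported here.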

Additional observations from a re-analysis of the deposited data

How the results depend on the processing

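The number of genes past the size rule kept within 1.5 times of 34 and 69 under other scalings, the unstranded column, thinning and each lane left out. It moved with the thresholds themselves: a level of 1 CPM gave 114 higher and 313 lower in S1, no filter on low counts gave 725 and 1215, and a log2 ratio of 1.5 gave 5 and 14. The pooled-spread test gave 688 higher with no filter. DESeq2 gave 170 higher and 231 lower, of which 169 and 229 were among the edgeR calls. Without mock it gave 718 and 1036, and without ASO-Neg 895 and 1185, which held 402 and 599, and 402 and 598, of the original calls. The cause was not tested, and without mock 1 residual degree of freedom remained. None of the 86 named genes past the test reversed direction in the alternative fits. Some list medians near 0 did change sign over the settings. They ran from -0.07 to 0.01 for SREBP control and sterol uptake and from -0.02 to 0.05 for fatty acid synthesis. Those of cholesterol synthesis ran from -0.06 to 0.03 and those of claudins and tight junctions from -0.10 to 0.05. Of 86 named genes past the test, DESeq2 lost 27 and thinning lost 13, and the 5 marker genes passed in every fit run. The SREBF1 ratio did not pass in any of them (adjusted p 0.482 to 0.874 over the alternatives in edgeR, DESeq2 and limma). No paired analysis was possible because the replicate numbers in the labels mark sequencing lanes of 1 library, which were summed. With 1 library per ASO, a difference between the oligonucleotides and one between single cultures cannot be told apart. S1 was sequenced more deeply than S4, so genes low in S4 have the wider intervals.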
